A study of Homo sapiens with 4 samples.

Results

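Translation factor genes were taken here as the genes whose name begins with EIF1 to EIF6 or with EEF1 or EEF2, leaving out rows annotated as pseudogenes. They numbered 51 genes with 173 transcripts, of 10098 gene names with 19895 transcripts in all. The HT-29 table held 108 of their transcripts from 45 genes, and the CaCo-2 table held 92 from 42 genes. By name, 43 genes were initiation factors and 8 were elongation factors. The first set includes EIF3J-AS1, an antisense RNA that only shares the symbol, and whether the counting used strand is not given in the sources used here. The measurement was RNA immunoprecipitation followed by sequencing (RIP-seq), in which an antibody pulls a protein out of a lysate and the co-purified RNA is read. HT-29 and CaCo-2 are established human colon adenocarcinoma lines, and both were left untreated. In each line 1 library came from RNA collected from nuclear lysate with an antibody against beta-catenin, the co-activator of Wnt signalling, and 1 input library was made without antibody. The groups were therefore HT-29 RIP, HT-29 input, CaCo-2 RIP and CaCo-2 input, with 1 library each.

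Protein synthesis on the ribosome runs through initiation, elongation, termination and recycling. Initiation factors (eIFs) bring the initiator tRNA, the small ribosomal subunit and the capped mRNA together and find the start codon. Elongation factors (eEFs) then deliver each aminoacyl-tRNA and move the ribosome along by 1 codon at a time. These steps take place in the cytoplasm, and many mRNAs of the factors are among the abundant housekeeping messages of proliferating cells. The RNA measured here was nuclear, so it can hold transcripts that are unspliced or partly spliced.

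The tables hold selected transcripts, each with a level in FPKM, a fragment count scaled by the authors for transcript length and sequencing depth. Paired levels below are written with the RIP before the input. In both tables every listed transcript was at least 1.5-fold higher in the RIP, so the direction of each member's difference was fixed by the listing and is not a finding. Transcripts outside the tables were not analysed here. Of 9 colon epithelial markers, the HT-29 table held 7 and the CaCo-2 table held 5. Of 6 markers of other cell types the tables held 0 and 1, the 1 being ALB in CaCo-2, at 10.7 FPKM in the RIP and 0.0983 in the input. With 1 library per group there was no replicate error and no test was made. Differences between RIP and input therefore describe these libraries only, and sequencing depth is unknown from the tables.

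Member transcripts lay between 1.32 and 189.9 FPKM in the HT-29 RIP, with a median of 3.10, against a median of 0.636 in the HT-29 input. In CaCo-2 they lay between 0.843 and 73.0 FPKM in the RIP, with a median of 1.78, against 0.524 in the input. The 2 tables were normalised separately, so these levels are not compared between the lines. Input was listed at 0 for 35 of 108 member transcripts in HT-29 (32.4%, against 31.8% of all listed transcripts) and for 21 of 92 in CaCo-2 (22.8%, against 29.0%). A level of 0 for 1 transcript does not show that its gene was absent from the input, since other isoforms of the gene need not be listed.

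The ratio used below is the log2 ratio of RIP to input after adding 1 FPKM to each, and it was taken where either library of the line reached 1 FPKM. All 108 member transcripts of HT-29 met this minimum and 77 of 92 in CaCo-2 did. The 15 that did not were all initiation factor transcripts, and 4 genes dropped out with them. In HT-29, 71 of 108 member transcripts (65.7%) reached a ratio of 2-fold or more, where 56.0% of all listed transcripts did. In CaCo-2, 32 of 77 (41.6%) passed 2-fold, where 40.8% of the 10116 transcripts that met the minimum did. Shares past 2-fold and median ratios given below for all transcripts or genes likewise cover only those that met the minimum. The CaCo-2 share was thus close to that of the whole table and the HT-29 share was above it. A pseudocount of 0.1 FPKM in place of 1 raised the CaCo-2 count to 54 of 77 (70.1%), where 67.2% of all transcripts then passed. In HT-29 it gave 91 of 108 (84.3%), where 74.8% of all did. Represented by its transcript of highest RIP level, each gene was counted once, and 30 of 45 genes passed in HT-29 (66.7%, against 55.6% of all genes) and 16 of 38 in CaCo-2 (42.1%, against 41.0%). The median log2 ratio over genes was 1.35 for the factors and 1.12 for all genes in HT-29. In CaCo-2 it was 0.92 and 0.83. With the pseudocount of 0.1 the HT-29 medians were 2.37 for the factors and 1.73 for all genes.

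Many of these ratios rest on an input at or near 0. Where both libraries of a line reached 1 FPKM, 20 of 42 member transcripts passed 2-fold in HT-29 (47.6%), where 25.2% of all transcripts under the same minimum did. In CaCo-2, 9 of 30 passed (30.0%), where 13.1% of all transcripts did. The medians of the log2 ratio under this minimum were 0.97 for members and 0.72 for all transcripts in HT-29. They were 0.76 and 0.61 in CaCo-2. The added 1 FPKM lowers ratios more at low levels, and members lay higher than all transcripts. Under this minimum the HT-29 medians in RIP and input were 8.28 and 2.52 FPKM for members and 4.30 and 1.93 for all. In CaCo-2 they were 4.66 and 1.87 against 3.21 and 1.60. The shares above were not matched for level. Several transcripts of 1 gene share reads, so the members are not independent of each other.

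**Figure D1:**
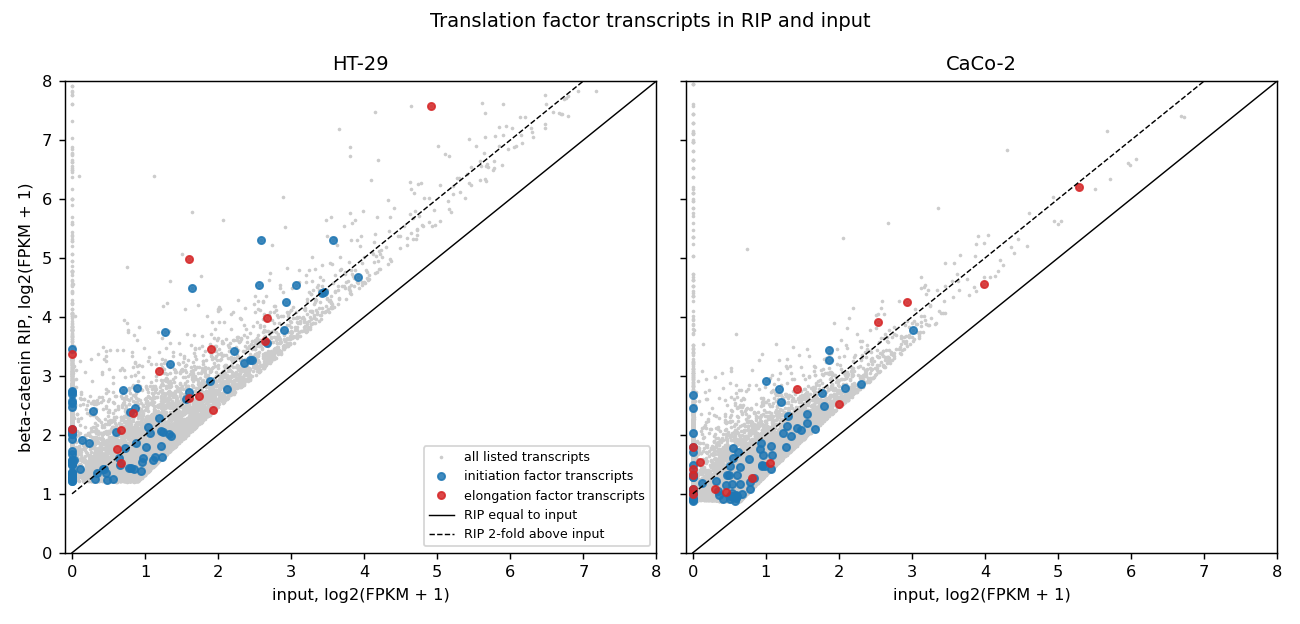
Each point is 1 listed transcript, with its input level on the x axis and its beta-catenin RIP level on the y axis, both as log2 of FPKM plus 1, for HT-29 and CaCo-2. Blue points are initiation factor transcripts, red points elongation factor transcripts and grey points all listed transcripts with values inside the axes; the highest red point in each panel is the EEF1A1 processed transcript, with RIP levels of 189.9 FPKM (HT-29) and 73.0 FPKM (CaCo-2).

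Initiation and elongation factors were compared within each line. In HT-29, 60 of 93 initiation factor transcripts (64.5%) and 11 of 15 elongation factor transcripts (73.3%) passed 2-fold, beside 56.0% of all transcripts. In CaCo-2, 23 of 61 (37.7%) and 9 of 16 (56.3%) did, beside 40.8% of all, so the initiation share was near that of the whole table. Over genes, the median log2 ratio was 1.34 for initiation and 1.53 for elongation factors in HT-29, a difference of -0.19 from 38 and 7 genes. It was 0.83 and 1.32 in CaCo-2, a difference of -0.49 from 31 and 7 genes. The HT-29 difference turned to 0.05 when kinases, binding partners and other genes that carry a factor symbol were left out, and to 0.26 with a pseudocount of 0.1 FPKM. It widened to -0.63 where both libraries had to reach 1 FPKM, over 19 and 4 genes. In CaCo-2 it stayed below 0 under the alternatives tried, at -0.04 with the pseudocount of 0.1. No test of this difference was made, since genes are not replicates. Levels differed too. In HT-29 the median input was 0.568 FPKM for initiation and 2.04 FPKM for elongation factor transcripts. Input was listed at 0 for 33 of 93 and 2 of 15. In CaCo-2 the input medians were 0.524 and 0.556 FPKM, and input was at 0 for 16 of 76 and 5 of 16.

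**Figure D2:**
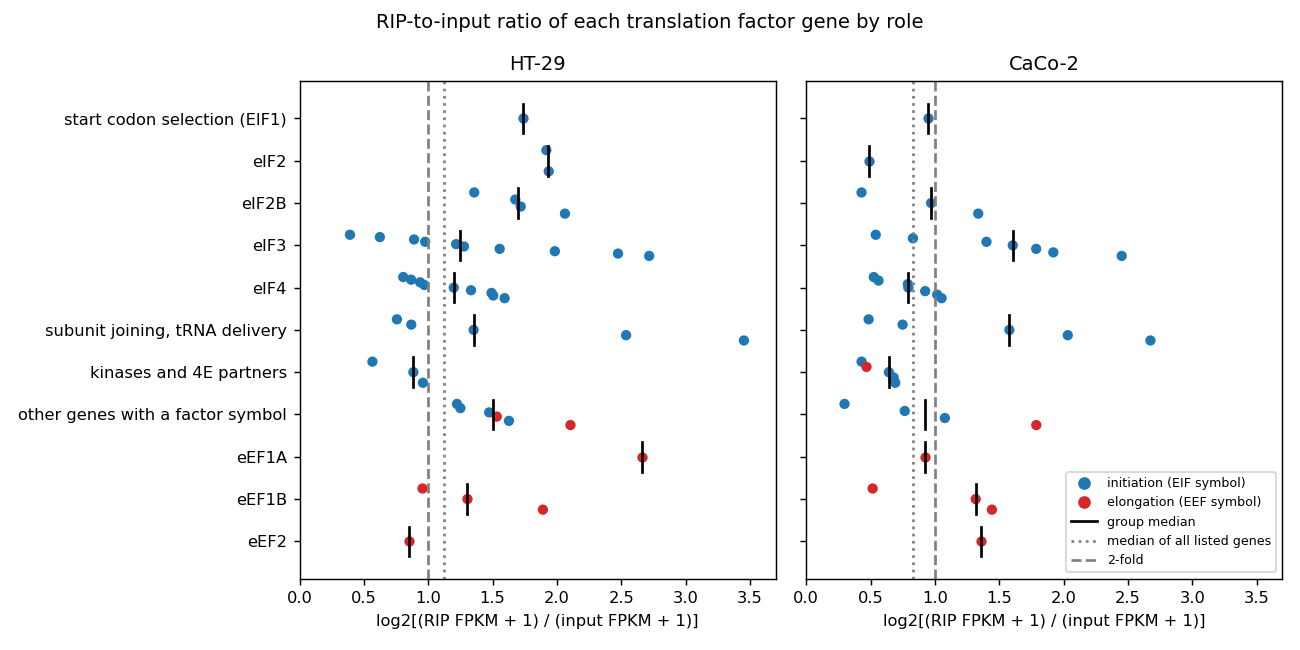
Each point is 1 gene, placed by the log2 ratio of RIP over input (FPKM plus 1) of its listed transcript with the highest RIP level, in rows by role for HT-29 and CaCo-2. Black bars mark row medians, dashed lines 2-fold and dotted lines the median of all listed genes that met the minimum level. That median was 1.12 in HT-29 and 0.83 in CaCo-2. The rightmost HT-29 point is EIF5 at 3.45, and the eEF1A row moves to 0.92 in CaCo-2, against 2.66 in HT-29.

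Many mRNAs of the translation machinery are known to begin with a pyrimidine tract, and start sites are shown for that reason. Start sites from RefSeq (GRCh38.p14, a later build than the hg19 of the tables) were found for 43 of the 51 genes. The motif searched, on the transcribed strand alone, was a C followed by 4 or more bases that are each C or T, beginning and ending within 10 bases on either side of the start. It was present at 20 of 49 initiation factor starts (40.8%), 5 of 8 elongation factor starts (62.5%) and 28.2% of the 35116 starts in the reference. By gene it was 20 of 36 (55.6%), 5 of 7 (71.4%) and 32.9% of all genes in the reference. The elongation factor starts with it include those of the kinase EEF2K and the read-through EEF1E1-BLOC1S5. Of the 25 member tracts, 8 ended before the first transcribed base and 17 reached it (29.8% of 57 member starts, against 15.7% of all starts). The tracts printed here were taken from those that reach it. The 30 bases below run from 10 before to 20 after the start, 5′ to 3′, with the tract in capitals as far as the searched window reaches. The EEF1B2 run of C and T goes on past the window. EIF4A1 and EEF1G are given as members without it at their listed start.
EIF3M (chr11:32583821-32583850, plus strand): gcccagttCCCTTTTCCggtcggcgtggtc
EIF2A (chr3:150546777-150546806, plus strand): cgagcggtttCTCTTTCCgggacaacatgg
EIF4A2 (chr3:186783567-186783596, plus strand): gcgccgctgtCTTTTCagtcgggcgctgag
EIF4A1 (chr17:7572815-7572844, plus strand): ggcactccgccctagtttctaaggatcatg
EEF1A1 (chr6:73521013-73521042, minus strand): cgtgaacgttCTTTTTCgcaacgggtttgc
EEF1B2 (chr2:206159885-206159914, plus strand): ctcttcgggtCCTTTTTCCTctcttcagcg
EEF2 (chr19:3985444-3985473, minus strand): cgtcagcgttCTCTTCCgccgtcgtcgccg
EEF1G (chr11:62573872-62573901, minus strand): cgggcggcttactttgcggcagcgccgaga

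Member genes were split by such a tract at any of their starts, whether or not it reached the first transcribed base. Those with one had a median log2 ratio of 1.43 in HT-29 over 22 genes, against 1.42 over the 16 matched genes without one. In CaCo-2 the medians were 1.34 over 19 genes and 0.73 over 14. Among all matched genes of the tables the medians were 1.10 with and 1.07 without a tract in HT-29. They were 0.84 and 0.85 in CaCo-2. Each gene's ratio was that of its listed transcript with the highest RIP level, which need not begin at the start searched. For EIF3M that transcript began at 32605378 (hg19) in HT-29 and at 32611132 in CaCo-2. The medians are therefore not those of RNAs known to carry the tract. A match is a description of these letters and does not show that the start is used in these cells.

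Among elongation factors, EEF1A1 encodes eEF1A, the GTPase that carries aminoacyl-tRNA to the ribosome. Its processed transcript ENST00000491404 (hg19, chromosome 6, 74227238 to 74229140) reached 189.9 FPKM in RIP and 29.1 in input of HT-29, a log2 ratio of 2.66. The same transcript was at 73.0 FPKM in the CaCo-2 RIP and 38.0 in the CaCo-2 input, a log2 ratio of 0.92. It had the highest level of any member in all 4 libraries, and it passed 2-fold in HT-29 alone. A retained-intron transcript of EEF1A1 (74228517 to 74229782) was at 30.6 versus 2.04 FPKM in HT-29, a log2 ratio of 3.38, and at 22.5 versus 14.9 in CaCo-2, a log2 ratio of 0.57. A longer retained-intron transcript (74227242 to 74229782) was listed in CaCo-2 alone, at 14.1 versus 4.799 FPKM. The authors' deposited table gave both HT-29 transcripts a q of 0.9998 and the 3 CaCo-2 transcripts a q of 1. The number of protein-coding EEF1A1 transcripts listed was 0 in both lines. EEF1A1 has many near-identical processed pseudogenes, and how fragments that match several copies were assigned is not given in the sources used here, so these values are uncertain.

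The exchange factor complex eEF1B, which reloads eEF1A with GTP, was listed through 3 genes in both lines. EEF1D had 8 transcripts in HT-29 and 7 in CaCo-2, most of them protein-coding isoforms of the same locus (chromosome 8). In HT-29 their RIP levels ran from 2.41 to 14.7 FPKM, and 6 of 8 passed 2-fold (56.0% of all transcripts did). A short protein-coding EEF1D isoform (144661898 to 144662910) reached 9.37 FPKM in RIP of HT-29, and its input entry was 0. In CaCo-2 the RIP levels ran from 1.01 to 18.1 FPKM and 4 of 7 passed (40.8% of all did). The EEF1D isoform with the highest CaCo-2 level, ENST00000528610, was at 18.1 FPKM in the RIP and 6.66 in the input, with a q of 0.439 by the authors' deposited table. The number of EEF1D transcripts listed in both lines was 0, so its ratio cannot be set side by side for the same isoform.

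EEF1B2 was listed by a protein-coding transcript in HT-29, at 7.43 FPKM in the RIP and 1.27 in the input (log2 ratio 1.89). In CaCo-2 it was listed by other transcripts, a retained-intron form at 1.92 versus 0.0734 FPKM and a nonsense-mediated-decay form at 1.51 versus 0. EEF1G was listed by the same processed transcript in both lines (chromosome 11, 62334871 to 62340215), at 11.1 versus 5.24 FPKM in HT-29 and 4.75 versus 3.02 in CaCo-2. Neither EEF1G ratio reached 2-fold, with log2 values of 0.96 and 0.52.

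EEF2 encodes the GTPase that moves the ribosome to the next codon. Its HT-29 entry was a processed transcript at 1.88 FPKM in the RIP and 0.595 in the input (log2 ratio 0.85). Its CaCo-2 entry was a short protein-coding transcript (chromosome 19, 3976054 to 3978132) at 5.87 FPKM in the RIP and 1.68 in the input (log2 ratio 1.36). EEF2K, the kinase that inhibits eEF2, was listed in CaCo-2 at 1.41 versus 0.746 FPKM. EEF1E1, which despite its symbol is a component of the multi-tRNA synthetase complex, was listed by the same transcript in both lines, at 4.14 versus 0.778 FPKM in HT-29 and 2.45 versus 0 in CaCo-2. Its read-through EEF1E1-BLOC1S5 was listed in HT-29 at 3.30 FPKM with input at 0. The number of elongation factor transcripts with q at or below 0.05 in the authors' deposited table was 0 in both lines.

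Among initiation factors, eIF3 is the scaffold complex on the small ribosomal subunit and the set with the most genes here. In HT-29, 12 of 16 eIF3 transcripts passed 2-fold, beside 56.0% of all transcripts. By gene it was 6 of 10 (60.0%), near the 55.6% of all genes, with a median log2 ratio of 1.25. In CaCo-2, 5 of 8 transcripts passed, beside 40.8% of all. By gene it was 5 of 7 (71.4%), beside 41.0% of all genes, with a median of 1.60 against 0.83 for all genes. EIF3C, EIF3F and EIF3G were listed there only below the minimum level and are not among the 7. The EIF3M protein-coding transcript ENST00000526267 (chromosome 11, 32611132 to 32623923) was at 21.6 FPKM in the RIP and 2.12 in the input of HT-29, and at 6.57 and 1.001 in CaCo-2. The log2 ratios were 2.86 and 1.92, and the authors' deposited table gave a q of 0.536 and 0.734. A retained-intron EIF3M transcript, listed in HT-29 alone, was at 22.3 versus 4.90 FPKM.

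EIF3J, a loosely held eIF3 subunit, had 1 retained-intron transcript common to both lines (chromosome 15, 44843636 to 44849949). It was at 12.4 versus 1.41 FPKM in HT-29 and at 4.47 versus 0 in CaCo-2, with log2 ratios of 2.47 and 2.45. EIF3L had a retained-intron transcript in HT-29 (chromosome 22, 38282711 to 38284638) at 38.5 versus 5.01 FPKM, with a log2 ratio of 2.72. The CaCo-2 table listed EIF3L by a protein-coding transcript instead, at 1.80 versus 0.929. EIF3B was listed by a shared retained-intron transcript at 8.25 versus 1.53 FPKM in HT-29 and 8.61 versus 2.64 in CaCo-2. Its protein-coding transcript in HT-29 was at 20.1 versus 9.73 FPKM, just under 2-fold on this scale. In CaCo-2, EIF3D was at 5.89 versus 1.27 FPKM and EIF3K at 2.45 versus 0.00102, both as protein-coding transcripts past 2-fold. EIF3A, the largest subunit, and EIF3E did not pass in HT-29, with log2 ratios of 0.62 and 0.89. The EIF3D transcript with the highest HT-29 RIP level, also protein-coding, was at 2.08 versus 1.34 FPKM, a log2 ratio of 0.39. Of the 3 EIF3D transcripts in HT-29, 2 passed, both from an input of 0.

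The eIF4 group binds the cap, holds the mRNA and unwinds it. In HT-29, 19 of 33 of its transcripts passed 2-fold (57.6%, beside 56.0% of all), and in CaCo-2 9 of 25 (36.0%, beside 40.8%). Both shares were near those of the whole tables. The gene medians were 1.20 over 9 genes and 0.79 over 7. EIF4A1, the RNA helicase of the group, had 11 transcripts in HT-29 between 1.70 and 8.66 FPKM in the RIP, all within chromosome 17, 7476142 to 7481785. Of these 6 passed 2-fold, and 3 had input at 0, among them retained-intron transcripts at 5.59 and 5.47 FPKM. In CaCo-2, 6 EIF4A1 transcripts were listed and 3 passed. Its paralogue EIF4A2 was listed by retained-intron and nonsense-mediated-decay transcripts only, 3 in HT-29 and 7 in CaCo-2. The EIF4A2 transcript shared by the lines (ENST00000465792) was at 3.86 versus 1.28 FPKM in HT-29 and at 4.88 versus 1.31 in CaCo-2. The EIF4A1 transcript ENST00000584901 was at 6.54 versus 2.70 and 4.01 versus 1.48 FPKM in these lines, with ratios of 1.03 and 1.02. EIF4H, a partner of the helicase, shared a retained-intron transcript at 1.39 versus 0.249 FPKM in HT-29 and at 2.62 versus 0.907 in CaCo-2. Its log2 ratios of 0.94 and 0.92 were just under 2-fold. EIF4E, the cap-binding protein, was listed at 1.81 and 1.42 FPKM in HT-29 with input at 0, and at 0.998 in CaCo-2, below the minimum level.

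The scaffold proteins of the group were among the higher protein-coding members in HT-29. EIF4G2 was at 20.5 FPKM in the RIP and 9.97 in the input, and EIF4G1 at 18.1 and 6.59. In CaCo-2 the highest EIF4G1 transcript was at 3.10 versus 1.36 FPKM, while a retained-intron one had 2.27 FPKM in RIP from an input of 0, a log2 ratio of 1.71. The EIF4G2 transcript common to the lines was at 1.99 and 1.08 FPKM in RIP, with input at 0 in each. EIF4G3 gave the only HT-29 member with q at or below 0.05 in the authors' deposited table (1 of 108 transcripts, against 3.08% of the whole table). This long protein-coding isoform (ENST00000602326, chromosome 1, 21132976 to 21503343) had 3.05 FPKM in RIP, an input entry of 0 and a q of 0.00267 by the authors' deposited table. A second protein-coding EIF4G3 isoform was at 4.24 versus 0.737 FPKM, with a q of 0.196 by the authors' deposited table. Of 2 EIF4G3 transcripts common to the lines, the processed transcript ENST00000496705 had log2 ratios of 2.07 (HT-29) and 1.05 (CaCo-2). The protein-coding ENST00000411888 had 0.76 and 0.81.

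The remaining initiation steps are start codon selection, delivery of the initiator tRNA and joining of the large subunit. EIF1, which guards start codon choice, was listed in HT-29 by a processed transcript at 38.7 versus 10.9 FPKM and a protein-coding one at 5.89 versus 3.36. The protein-coding one was also listed in CaCo-2, at 4.58 versus 2.46, so its log2 ratios were 0.66 and 0.69. eIF2, the GTPase that carries the initiator tRNA, had 3 of 4 transcripts past 2-fold in HT-29, among them EIF2S1 at 5.97 versus 0.845 FPKM, and 0 of 1 in CaCo-2. These counts stand beside 56.0% and 40.8% of all transcripts. For its exchange factor eIF2B, 6 of 6 passed in HT-29, 4 of them from an input of 0, and 2 of 5 in CaCo-2 (40.0%, close to the whole table). EIF2B4 led these at 5.75 versus 0.616 FPKM in HT-29. A retained-intron EIF2B5 transcript was at 1.56 versus 0.270 FPKM in HT-29 and 1.42 versus 0 in CaCo-2.

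EIF2A and EIF2D can deliver tRNA without eIF2. The EIF2A transcript ENST00000460851 was at 24.6 FPKM in the RIP and 14.1 in the input of HT-29, a log2 ratio of 0.76. Other EIF2A transcripts, listed in HT-29 with input at 0, had higher ratios there. The nonsense-mediated-decay form was at 5.71 FPKM in RIP (2.75) and the processed transcript at 4.97 FPKM (2.58). In CaCo-2 ENST00000460851 was at 5.41 versus 0.00488, with 2.67 as log2 ratio. EIF2D was listed in HT-29 by another transcript, at 1.55 FPKM from an input of 0. EIF2D gave the only CaCo-2 member with q at or below 0.05 in the authors' deposited table (1 of 92, against 2.24% of that table). This protein-coding transcript (chromosome 1, 206775696 to 206785803) had 3.09 FPKM in RIP, an input entry of 0 and a q of 0.0471 by the authors' deposited table. EIF5 promotes GTP hydrolysis by eIF2, and its retained-intron transcript ENST00000558800 (chromosome 14, 103806741 to 103807693) had the highest ratio of any member in HT-29. It had 9.95 FPKM in RIP and an input entry of 0, a log2 ratio of 3.45. Another EIF5 transcript, ENST00000561325, was at 5.63 versus 2.04 FPKM in HT-29 and 9.82 versus 2.62 in CaCo-2. The shared retained-intron transcript ENST00000561380 was at 2.43 versus 0.656 and 3.57 versus 1.97. EIF5B, the GTPase of subunit joining, was at 4.804 versus 0 in HT-29 and 1.77 versus 0.979 in CaCo-2.

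Some genes carry a factor symbol but have another role. The eIF2 kinases, which shut initiation down under stress, the eIF4E partner EIF4ENIF1 and EEF2K form the regulator group. Of its transcripts, 3 of 7 passed 2-fold in HT-29 (42.9%, beside 56.0% of all), all from EIF2AK1. In CaCo-2, where EIF4ENIF1 and EEF2K were also listed, 2 of 7 did (28.6%, beside 40.8%). With 1 transcript per gene, 0 of 3 and 0 of 5 passed, beside 55.6% and 41.0% of all genes. The EIF2AK1 retained-intron transcript ENST00000463213 had 4.56 FPKM in RIP of HT-29 from an input of 0, with 2.48 as log2 ratio. In CaCo-2 a protein-coding EIF2AK1 transcript had 1.80 FPKM from an input of 0. The EIF2AK1 transcript in both tables had log2 ratios of 1.55 (HT-29) and 0.68 (CaCo-2). EIF2AK1 was at 10.8 versus 5.39 FPKM and EIF2AK3 at 3.07 versus 1.10 in HT-29, and EIF2AK3 was at 3.30 versus 2.19 in CaCo-2. EIF5A acts in elongation in spite of its name. Its highest isoform was at 22.3 versus 7.40 FPKM in HT-29 (a q of 0.138 by the authors' deposited table) and 12.7 versus 7.07 in CaCo-2 (another isoform, a q of 0.536 by the authors' deposited table). EIF4A3, the helicase of the exon junction complex, was listed in HT-29 at 1.38 FPKM with input at 0.

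Initiation factor transcripts were often annotated as retained introns, meaning spliced forms that keep an intron. Among transcripts of 4 classes (protein coding, retained intron, processed transcript and nonsense-mediated decay), retained introns made up 34 of 93 initiation factor transcripts in HT-29 (36.6%), 1 of 15 elongation factor transcripts and 19.1% of all listed transcripts. In CaCo-2 they made up 31 of 75 (41.3%), 4 of 16 and 25.6%. Retained-intron member transcripts passed 2-fold in 26 of 35 cases in HT-29 (74.3%, against 52.0% of all retained-intron transcripts) and in 10 of 28 in CaCo-2 (35.7%, against 32.0%). Protein-coding member transcripts passed in 27 of 48 (56.3%, against 53.2%) and 16 of 34 (47.1%, against 42.0%). The number of protein-coding transcripts listed was 0 for 19 of 45 genes of the HT-29 table. It was 0 for 16 of 42 genes of the CaCo-2 table. The values given for these genes are therefore those assigned to other annotated transcript forms of the locus. Whether their fragments came from the mRNA that encodes the factor was not tested.

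**Figure D3:**
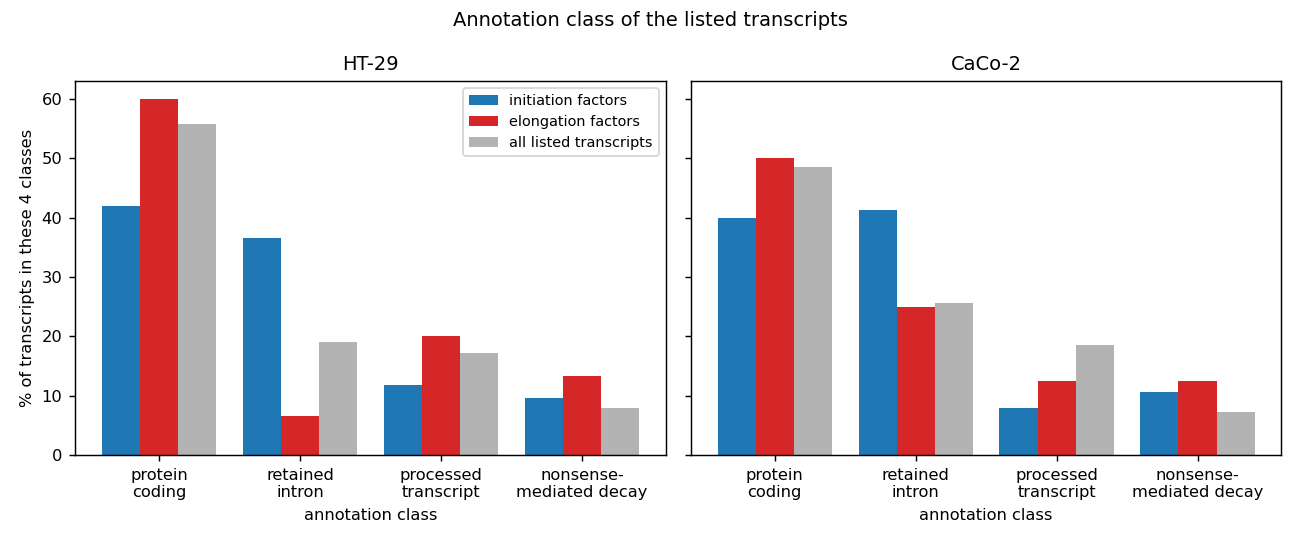
Bars give the share of transcripts in each annotation class, in percent of those in the 4 classes shown, for initiation factors, elongation factors and all listed transcripts in HT-29 and CaCo-2. Retained introns were 36.6% of initiation factor transcripts in HT-29 and 41.3% in CaCo-2, against 19.1% and 25.6% of all listed transcripts.

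Between the lines, 36 member genes were listed in both tables, but only 27 member transcripts were, and 23 of these met the minimum level in both. Of these 23, 11 passed 2-fold in HT-29 as well as CaCo-2 (47.8%), where 30.0% of all shared transcripts did. They belonged to EIF2B5, EIF3B, EIF3J, EIF3M, EIF4A1 (2 transcripts), EIF4A2, EIF4G2, EIF4G3, EIF5 and EEF1E1. A pseudocount of 0.1 FPKM in place of 1 brought the shares closer, to 14 of 23 (60.9%) against 53.5% of all shared transcripts. With the pseudocount of 1 and at least 1 FPKM in all 4 libraries, 5 of 10 passed in both lines, where 12.7% of all such transcripts did. These 5 were transcripts of EIF3B, EIF3M, EIF4A1, EIF4A2 and EIF5. The ratio was higher in HT-29 than in CaCo-2 for 15 of the 23 (65.2%), close to the 66.4% of all shared transcripts. The largest gaps toward HT-29 were those of the retained-intron transcripts of EEF1A1, 2.81 on the log2 scale, and EIF5B, 2.05. The largest gap the other way was that of EIF2A, at -1.92. The HT-29 input of EIF5B was 0 and the CaCo-2 input of EIF2A was 0.00488 FPKM. The sizes of these gaps therefore depend on the 1 FPKM added.

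**Figure D4:**
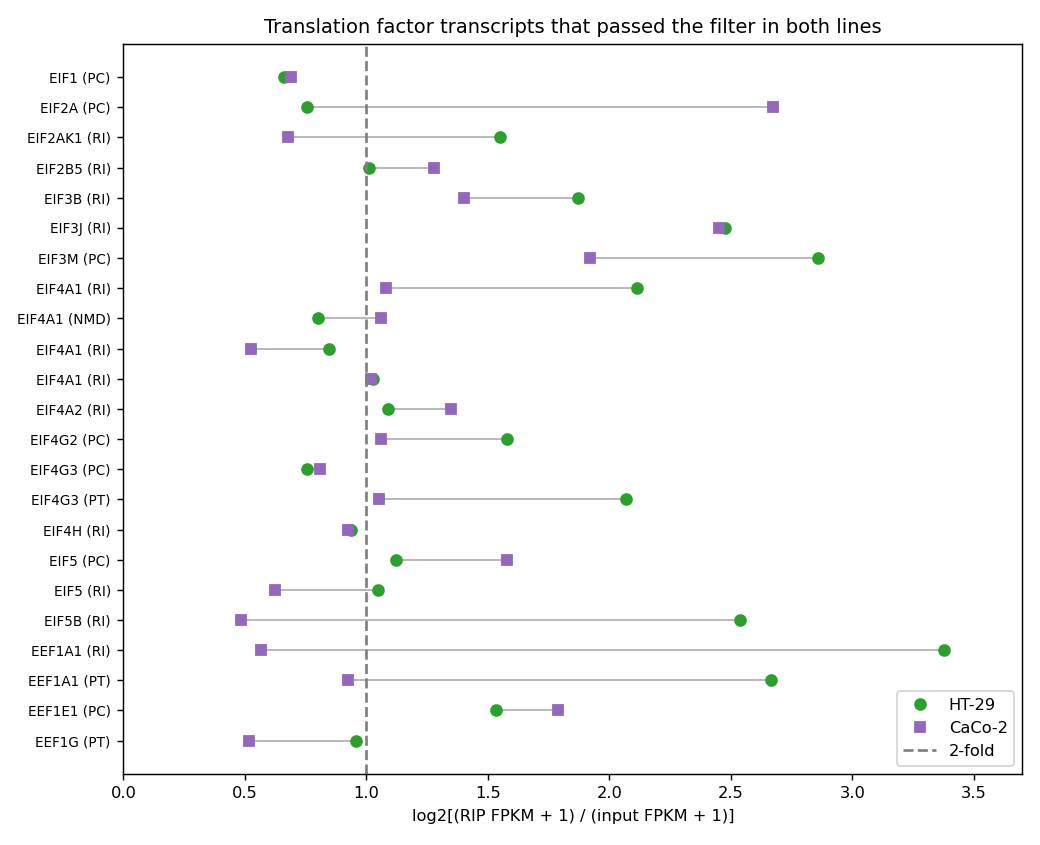
Each row is 1 of the 23 transcripts that met the minimum level in both lines, with its log2 ratio of RIP over input (FPKM plus 1) in HT-29 (circles) and CaCo-2 (squares); PC is protein coding, RI retained intron, PT processed transcript and NMD nonsense-mediated decay. EIF3J lay at 2.47 and 2.45, with a CaCo-2 input of 0, so the closeness of its values depends on the 1 FPKM added. The EEF1A1 retained-intron transcript lay at 3.38 in HT-29 and 0.57 in CaCo-2.

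Small RNAs can be encoded inside introns of translation factor genes, and a few were listed within a member transcript on the same strand. In HT-29 SNORD97 lay within 2 EIF4G2 transcripts (chromosome 11, 10823014 to 10823155) and was at 16369 FPKM in the RIP and 3666 in the input. SNORA28 lay within 2 EIF5 transcripts (chromosome 14, 103804186 to 103804311) and was at 281 versus 53.7 FPKM. The log2 ratios of these small nucleolar RNAs were 2.16 and 2.37, above those of the transcripts around them. The latter were 0.97 and 1.58 for EIF4G2 and 0.96 and 1.30 for EIF5. The added 1 FPKM lowers ratios more at low levels. The EIF4G2 host with 1.58 was at 1.99 versus 0 FPKM, and the EIF5 host with 1.30 was at 1.67 versus 0.0823. For these hosts the order therefore depends on the 1 FPKM added. In CaCo-2 the number of snoRNAs listed within members was 0, and RN7SL851P, annotated as miscellaneous RNA, lay within 2 EIF2AK1 transcripts with 3.22 FPKM in RIP from an input of 0. Their part in the ratios of the host transcripts was not tested.

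Other genes of the translation pathway were counted by gene, beside 55.6% of all genes past 2-fold in HT-29 and 41.0% in CaCo-2. Lists held 5 to 17 genes, and several counts were near those shares. Of the termination and recycling genes, 1 of 5 passed 2-fold in HT-29. The CaCo-2 count was 2 of 5 (40.0%), with medians of 0.71 and 0.77 for the lines in that order. ABCE1, which splits ribosomes for recycling, was at 14.3 versus 8.04 FPKM in HT-29. The poly(A)-binding and scaffold partners passed in 3 of 6 and 4 of 6 genes (66.7%), with medians of 1.03 and 1.15. PABPC1, the cytoplasmic poly(A)-binding protein, was at 76.9 versus 23.7 FPKM in HT-29, and by another transcript at 4.87 versus 2.87 in CaCo-2. Of the initiation regulators, 5 of 9 (55.6%) and 2 of 9 (22.2%) passed, with medians of 1.02 and 0.66. LARP1, a binder of pyrimidine-tract mRNAs, had 6.11 FPKM in RIP of HT-29 and an input entry of 0.

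Cytosolic aminoacyl-tRNA synthetases, which load tRNAs with amino acids, passed in 8 of 15 genes of HT-29 (53.3%, beside 55.6% of all) and in 11 of 17 of CaCo-2 (64.7%, beside 41.0%), with medians of 1.06 and 1.11. TARS was listed by the same nonsense-mediated-decay transcript at 21.3 versus 12.9 FPKM in HT-29 and 10.9 versus 4.87 in CaCo-2. Mitochondrial translation factors passed in 3 of 6 and 6 of 9 genes (66.7%), with medians of 1.05 and 1.28. TUFM, the mitochondrial counterpart of eEF1A, was at 9.27 versus 1.74 FPKM in CaCo-2. Across these 5 lists the number of transcripts with q at or below 0.05 in the authors' deposited table was 0. In CaCo-2 the synthetases, mitochondrial factors and poly(A) partners had larger medians than the 0.92 of the EIF and EEF genes and the other lists smaller ones, whereas in HT-29 all 5 lists had smaller medians than 1.35. The medians over all genes were 1.12 in HT-29, close to 4 of the 5 lists, and 0.83 in CaCo-2.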

How the data were processed

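Each line's table held 1 row per Ensembl transcript. Per the submitters' processing notes, the authors' tools were Cuffdiff, Cufflinks, Bowtie2, TopHat2 2.0.8 and CASAVA 1.4, and the build was hg19. For strandedness and other tool versions, no value is given in the sources used here. The deposited FPKM values were normalised by the authors, and the unit was read from the Cuffdiff column layout, since no header names it. The authors' deposited p-values and q-values compare 1 library with 1 library. Each input column was assigned to the line named by the other value column of its table. Coordinates were shifted to count from 1. Columns of per-sample values left unmapped numbered 0.

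Ratios were log2 of RIP over input FPKM with a pseudocount of 1, so ratios of low transcripts are understated. Transcripts needed 1 FPKM in at least 1 library. The calculation was checked on simulated tables. Python 3.11.15 and pandas 2.3.3 were used. Members, role groups and lists were chosen with earlier results of these data known.

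Genes were named by rule, as follows: all EEF transcripts, initiation factor transcripts listed in both lines, the 10 initiation factor transcripts with the highest ratio per line, members with q at or below 0.05, up to 4 genes per other list and line, and members in counts by role group. Some transcripts that meet a criterion are given by range, by count or in a plot alone, and 4 of the 27 shared ones fell below the minimum level. Members given with values outside the listed criteria, pseudogene copies, SNORD97 and SNORA28 were chosen after their values were seen, as was the motif searched at start sites.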

Additional observations from a re-analysis of the deposited data

Results flagged for a closer look

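The member set leaves out pseudogenes, of which 11 were in HT-29 and 2 were in CaCo-2. Copies of EEF1A1 among them drew attention because they carried RIP signal above the HT-29 input, a direction fixed by the listing. EEF1A1P17 (hg19, chromosome 12, 44053630 to 44054904) had 13.3 FPKM in the RIP, an input entry of 0 and a q of 1.4e-08 by the authors' deposited table. EEF1A1P16 (chromosome 12, 17143604 to 17145017) was at 8.53 versus 0.0805 FPKM with a q of 0.00739 by the authors' deposited table. EEF1A1P29 (chromosome X, 85415268 to 85416363) was at 3.99 versus 0 FPKM with a q of 0.00581 by the authors' deposited table. Other copies did not reach a q of 0.05 in the authors' deposited table. EEF1A1P13 was at 8.01 versus 2.18 FPKM in HT-29, where that table gives q as 0.125, and at 1.64 versus 0.0093 in CaCo-2, where it gives 1. EEF1A1P9 was at 1.53 versus 0.660 FPKM in HT-29, and its q there was 0.650. EEF1A1 itself was at 189.9 versus 29.1 FPKM in HT-29, and whether fragments of EEF1A1 were assigned to these copies was not tested.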

How the results depend on the processing

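No paired analysis was possible because each group held 1 library. Leaving out a library was not run, since it empties a group. Depth is unknown from FPKM. The cause of each shift below was not tested.

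With a pseudocount of 0.1 FPKM the median log2 ratio over genes was 2.38 in HT-29 and 1.41 in CaCo-2, initiation minus elongation was 0.26 and -0.0438, and 91 of 108 HT-29 and 54 of 77 CaCo-2 transcripts passed 2-fold (84.3% and 70.1%, against 74.8% and 67.2% of all). In both lines 14 of 23 passed (60.9%), against 53.5% of all. With 1 FPKM in both libraries, which leaves fewer transcripts, the HT-29 median was 0.98 and the differences were -0.63 and -0.33. Under this minimum 20 of 42 and 9 of 30 transcripts passed, against 25.2% and 13.1% of all. In both lines 5 of 10 did, against 12.7%. In the protein-coding class alone the medians were 1.28 and 0.89 and the differences -0.35 and -0.55. There 27 of 48 and 16 of 34 transcripts passed, against 53.2% and 42.0% of all protein-coding transcripts. With kinases, partners and other genes left out, the HT-29 difference was 0.0524, the CaCo-2 difference -0.36 and the CaCo-2 median 0.97. With FPKM summed over a gene's listed transcripts the medians were 1.51 and 1.13 and the differences -0.18 and -0.25. With no minimum level the CaCo-2 median was 0.90. The sign of initiation minus elongation therefore changed in HT-29 under 2 settings and in CaCo-2 under 0.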

Other observations

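Pseudogene copies of initiation factors were also listed, and they are given as values. In HT-29 EIF1AXP1 was at 18.6 FPKM in the RIP and 9.11 in the input, EIF4A1P10 at 6.11 and 2.01, and EIF2S2P4 at 3.73 and 1.39. The CaCo-2 table held EIF4EBP1P1, with 1.47 FPKM in the RIP and 0.450 in the input. The short HT-29 entry EIF4A1P12 had 38.9 FPKM in the RIP and 0 in the input, and EIF4A1P6 had 1.78 and 0.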
